A study of Drosophila melanogaster with 6 samples.

Results

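The genes of the circadian clock were followed in heart/nephrocyte complexes of adult female Drosophila melanogaster, the dissected heart tube of the fly with the filtering cells, called pericardial nephrocytes, that lie along it. The members were per, tim, Clk, cyc, vri, Pdp1, cwo, cry, dco and Pdfr, and a probe set was taken as a member where the array's annotation gave it 1 of these symbols and no other gene. All 10 genes were found, on 12 of the 18952 probe sets of the array, among 11982 genes with a probe set of their own, and 0 members lay on probe sets shared by several genes. One group of 3 arrays held complexes of flies kept for 21 days on medium with 0.1 M glucosamine, an amino sugar that feeds the hexosamine pathway. The other group of 3 arrays held complexes of flies kept as long on medium with 1.0 M sucrose, and the comparison is between these diets, which differ in sugar and in its concentration. All 6 arrays were of females, and neither a strain, a genotype, the age at the start, the light schedule nor the hour of dissection was given in the sources used here. The labels mention 30 adult females without saying whether each array came from its own set of flies, so p-values cover the spread from array to array, part of which may be technical. Flies on plain medium were not analysed here.

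The fly clock is a transcriptional feedback loop. The products of Clk and cyc bind together to E-box sequences and switch on per, tim, vri, Pdp1 and cwo, and the PER and TIM proteins return to the nucleus to repress that activity. In flies kept on a light-dark cycle, per, tim and vri transcripts are known to peak near the start of the night in clock-bearing tissues and Clk and cry transcripts near the opposite phase, so a level measured at 1 hour of the day is a level at that phase. Clocks run in many peripheral fly tissues, fat body and excretory tubules among them.

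After glucosamine, vri and dco were higher and cry and Pdfr were lower, past an adjusted p of 0.05 in a limma fit across all genes. The intensity of vri was 2.91 times as high in the mean and that of dco 1.61 times, while cry was 1.99 times and Pdfr 2.77 times as high after sucrose. The other 6 members did not pass. Of the 10 members, 4 were called, 2 higher and 2 lower, where 18.6% of all 10021 genes and unnamed probe sets tested were called, 9.92% higher and 8.64% lower. Of these 4 calls cry alone was kept with each array left out in turn, and the number of members called ran from 1 to 3 in those fits. Over everything tested, 1860 calls became 786 to 1467 in the same fits. Values are the deposited intensities, assumed to be on a linear scale, and differences are glucosamine minus sucrose of log2(intensity + 16), which understates the change of dim genes. The deposited values ran from 4.32 to 46624, and the intensities of different probe sets are not comparable as levels.

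**Figure D1:**
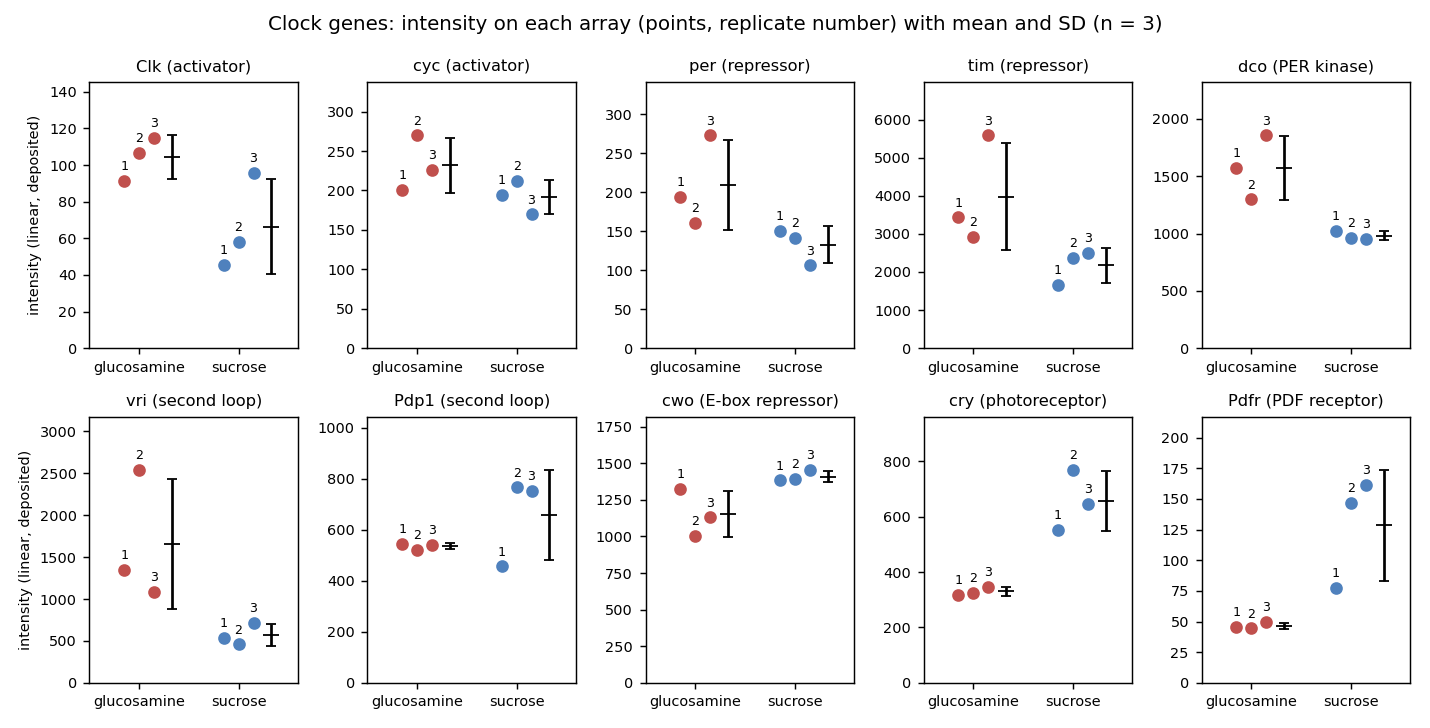
Deposited intensity (linear axis from 0, its own scale in each panel) of the 10 clock genes on each array, red for glucosamine and blue for sucrose, with the replicate number at each point and the mean and SD (n = 3) beside the points. The 3 glucosamine arrays lie above all sucrose arrays for per, tim, dco and vri and below them for cwo, cry and Pdfr, while Clk, cyc and Pdp1 overlap.

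Clk (CG7391) encodes the basic helix-loop-helix activator of the loop. Its intensity was 91.4, 106.5 and 114.9 on the glucosamine arrays and 45.3, 58.2 and 95.6 on the sucrose arrays. Sucrose replicate 3 reached into the glucosamine range, so the groups overlapped. The log2 difference was 0.59 ± 0.24 (SE, n = 3 arrays per group; limma adjusted p = 0.141), with a 95% interval from 0.02 to 1.16. Without sucrose replicate 3 it was 0.83 and passed, with an adjusted p of 0.0398, the one fit of all alternatives in which Clk was called. The partner of its product is encoded by cyc (CG8727), whose transcript is known to cycle little. Its intensity was 200.3, 269.7 and 226.2 after glucosamine and 194.0, 211.6 and 169.5 after sucrose. The groups overlapped, and the difference of 0.25 ± 0.16 (SE; limma adjusted p = 0.329) had a 95% interval from −0.14 to 0.64.

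Among the genes that the activators switch on, per (CG2647) encodes the repressor PERIOD. Its intensity was 193.5, 160.7 and 272.8 on the glucosamine arrays and 150.5, 141.2 and 106.0 on the sucrose arrays. Every glucosamine array was above every sucrose array, by 160.7 against 150.5 at the nearest pair. This gave a log2 difference of 0.58 ± 0.23 (SE; limma adjusted p = 0.127), and it was 0.39 without glucosamine replicate 3, the highest array of its group. The partner of PERIOD, the light-sensitive protein TIMELESS, is encoded by tim (CG3234). The brighter probe set of tim, at percentile 95.7 of the array by mean intensity, gave 3431, 2920 and 5584 after glucosamine and 1651, 2369 and 2505 after sucrose. These groups did not overlap either, although glucosamine replicate 3 stood well above the other arrays of its group. On the log2 scale tim differed by 0.83 ± 0.29 (SE; limma adjusted p = 0.0907), and it fell to 0.56 without glucosamine replicate 3 and to 0.65 without sucrose replicate 1.

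The other probe set of tim was far dimmer, with intensities of 58.3, 61.9 and 138.4 against 50.5, 49.0 and 56.6. Its groups did not overlap, but glucosamine replicates 1 and 2 exceeded the highest sucrose array by little and glucosamine replicate 3 carried most of the difference. In the fit on all probe sets separately its log2 difference was 0.50 ± 0.29 (SE; limma adjusted p = 0.288). Both probe sets of tim thus had a positive difference and their highest value on glucosamine replicate 3. On that array the gut markers alphaTry and betaTry, trypsin genes of the midgut, were also highest, at 2111 and 1157, against 24.7 to 289.9 and 27.9 to 269.2 on the other 2 glucosamine arrays. The summed hemocyte and body muscle markers were lowest of the group on that array, at 4708 and 6166, where the highest glucosamine array had 8326 and 12688. The part of gut or other tissue in the tim and per values of that array was not tested.

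The kinase gene dco (CG2048), also called doubletime, encodes casein kinase I, which phosphorylates PERIOD and sets its rate of degradation. Its intensity was 1573, 1298 and 1856 on the glucosamine arrays and 1025, 965.5 and 949.6 on the sucrose arrays. The groups lay clearly apart, with the sucrose arrays within 1.08-fold of each other. In the fit dco was higher by 0.66 ± 0.17 on the log2 scale (SE; limma adjusted p = 0.038), with a 95% interval from 0.26 to 1.06. The size of this difference held without any 1 array, from 0.54 to 0.79. The call was kept in 1 of those 6 fits, that without glucosamine replicate 2, and the adjusted p of the others ran up to 0.11.

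The bZIP genes vri (CG14029) and Pdp1 (CG17888) form the other loop of the clock, in which the VRILLE protein represses Clk and cry and the Pdp1 product activates Clk through the same sites. The intensity of vri was 1351, 2536 and 1085 on the glucosamine arrays and 538.3, 458.6 and 710.5 on the sucrose arrays. The lowest glucosamine array was thus above the highest sucrose array, and the glucosamine arrays spread over 2.34-fold among themselves. For vri the log2 difference of 1.44 ± 0.33 (SE; limma adjusted p = 0.0295) was larger in size than that of 94.9% of everything tested and the largest among the members. It stayed between 1.09 and 1.70 with 1 array left out, and the call was lost without glucosamine replicate 1, sucrose replicate 1 or sucrose replicate 2 (adjusted p = 0.0796, 0.0782 and 0.0898).

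The intensity of Pdp1 was 543.6, 521.7 and 541.1 after glucosamine and 456.9, 766.4 and 753.6 after sucrose. The glucosamine arrays were close together, and sucrose replicate 1 lay below them while the other sucrose arrays lay above. The log2 difference was −0.25 ± 0.22 (SE; limma adjusted p = 0.462), and −0.49 (adjusted p = 0.0842) without sucrose replicate 1. Pdp1 makes several transcripts, of which the clock is known to drive some, and 1 probe set of the gene cannot separate them.

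The gene cwo (CG17100) encodes clockwork orange, a repressor that competes with the activators at E-boxes. Its brighter probe set gave 1324, 1006 and 1130 after glucosamine and 1382, 1393 and 1452 after sucrose. The glucosamine arrays were all below the sucrose arrays, which agreed closely among themselves. For this probe set the difference was −0.29 ± 0.15 (SE; limma adjusted p = 0.222). The other probe set gave 642.0, 602.6 and 932.3 against 483.1, 691.5 and 598.8, overlapping groups with a difference of the opposite sign, 0.28 ± 0.22 (SE; limma adjusted p = 0.433, all probe sets tested separately). With the probe sets of the gene averaged the difference was −0.009, so the array gives no direction for cwo.

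The blue-light photoreceptor cryptochrome, which resets the clock by sending TIMELESS to degradation and which acts as a repressor in some peripheral tissues, is encoded by cry (CG3772). Its intensity was 318.9, 324.3 and 347.1 on the glucosamine arrays and 551.2, 768.0 and 647.4 on the sucrose arrays. All glucosamine arrays were far below the lowest sucrose array. Between the diets cry differed by −0.94 ± 0.16 on the log2 scale (SE; limma adjusted p = 0.0117), the smallest adjusted p among the members, with a 95% interval from −1.33 to −0.56. It ran from −1.06 to −0.83 with 1 array left out and passed in all 6 of those fits, at an adjusted p of up to 0.0498. Clk and cry are known to share a phase in cycling tissue. Their differences here had opposite signs, but the groups overlapped for Clk, which was not called. The hour of dissection was not given, and the part of the phase in these values was not tested.

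Pdfr (CG13758) encodes the receptor of the neuropeptide PDF, through which clock neurons keep each other in step. Its intensity was 45.4, 44.4 and 49.5 on the glucosamine arrays and 77.1, 147.0 and 161.2 on the sucrose arrays. The glucosamine arrays were nearly equal and low, and sucrose replicate 1 lay between them and the other sucrose arrays. The fitted difference of Pdfr was −1.16 ± 0.26 (SE; limma adjusted p = 0.0257), with a 95% interval from −1.77 to −0.55. The adjusted p was 0.0106 without sucrose replicate 1 and between 0.0638 and 0.0882 without any other single array, at differences from −1.19 to −0.98. The ligand gene Pdf was below the filter on low intensity in all arrays, at 6.21 to 9.58, near the lowest values deposited.

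**Figure D2:**
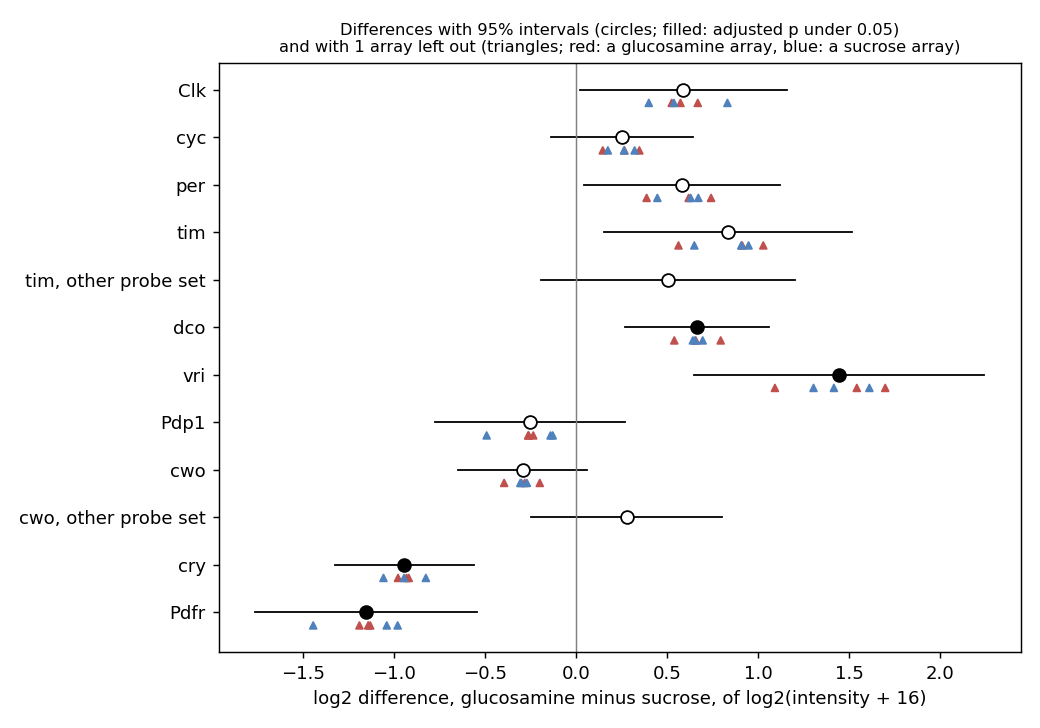
Log2 difference, glucosamine minus sucrose, of log2(intensity + 16) for each clock gene and for the other probe sets of tim and cwo, with 95% intervals of the fit (circles, filled where the adjusted p was under 0.05) and the same difference with each of the 6 arrays left out (triangles, red for a glucosamine and blue for a sucrose array). The triangles of all 10 genes, called or not, stay on their side of 0, those of vri from 1.09 to 1.70. The 2 probe sets of cwo lie on opposite sides.

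Set beside each other, 6 members had a positive and 4 a negative difference, and the median over the members was 0.416 against −0.035 over everything tested. The arrays of the groups did not overlap for 7 of 10 members, where they did not overlap for 39.0% of everything tested. An unadjusted p under 0.05 was found for 7 members, against 32.9% of everything tested. Of the genes that the activators switch on, per, tim and vri had positive differences, Pdp1 a negative one, and cwo one of each. The interval of Pdp1, from −0.78 to 0.27, included 0, so its sign is not settled. Whether these genes changed together was not tested. Of these 5 genes vri alone passed the threshold.

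The arrays of a group also differed among themselves in these genes. Of the 3 glucosamine arrays, replicate 3 was the highest for 6 members, namely per, tim, Clk, cry, dco and Pdfr, and the lowest for vri. Glucosamine replicate 2 was the lowest for 6 members and the highest for cyc and vri. Among the sucrose arrays, replicate 1 was the lowest for 6 members, namely tim, Clk, Pdp1, cwo, cry and Pdfr, and the highest for per and dco. A fit added after the data had been seen left out glucosamine replicate 3 and sucrose replicate 1. In it Pdfr was the one member called (−1.48, limma adjusted p = 0.04), where 331 of the 10021 tested were called. For Pdfr these were the highest glucosamine and the lowest sucrose array. Leaving them out was bound to enlarge its difference, so this call is no support. The differences of vri, cry, dco and tim were 1.67, −1.09, 0.57 and 0.38 (limma adjusted p = 0.0865, 0.0575, 0.155 and 0.29).

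Genes that act on the clock proteins, and genes of the input and output of the clock, were described from 3 further lists. Of these 43 genes in all, 33 had a probe set of their own and 26 passed the filter on low intensity. Of the 26, 3 were higher and 1 was lower after glucosamine past the threshold and 22 did not pass, a share near the 18.6% of everything tested. Their median difference was 0.062.

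In the list of kinases, phosphatases and protein turnover, 9 of 14 genes were tested. Of these, 2 were higher, 1 was lower and 6 did not pass, where 9.92% of everything tested was higher and 8.64% lower. The phosphatase subunit gene tws, whose product directs protein phosphatase 2A to PERIOD, gave 332.7, 345.5 and 269.2 after glucosamine and 483.3, 531.8 and 566.0 after sucrose. Its groups did not overlap, and it was lower by a log2 difference of −0.72 ± 0.15 (SE; limma adjusted p = 0.0233). Cul3, which encodes the scaffold of a ubiquitin ligase that acts on TIMELESS, gave 856.4, 672.1 and 599.9 against 371.0, 401.6 and 241.1. It was higher on every glucosamine array, by 1.05 ± 0.24 on the log2 scale (SE; limma adjusted p = 0.0266), and by 0.55 with the probe sets of the gene averaged, another of which was at 5.27 in the mean, near the lowest deposited values. Pp1-87B, a catalytic subunit of protein phosphatase 1, which stabilises TIMELESS, gave 5023, 4369 and 4710 against 3208, 3354 and 3453. The groups were far apart relative to their spread, and the difference was 0.49 ± 0.13 (SE; limma adjusted p = 0.0438). The calls of tws and Cul3 were kept in 2 and that of Pp1-87B in 0 of the 6 fits without 1 array, with adjusted p of up to 0.0674, 0.092 and 0.127. The ubiquitin ligase genes slmb and jet, which act in the degradation of PERIOD and TIMELESS, had differences of 0.07 and 0.05.

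In the list of transcription and RNA cofactors, 12 of 15 genes were tested. Of these, 1 was higher and 11 did not pass, where 18.6% of everything tested passed. The gene that was higher was kay, which encodes the fly Fos protein, a bZIP factor reported to bind VRILLE and to act on the Clk promoter. Its intensity was 3834, 3226 and 2710 on the glucosamine arrays and 1990, 1335 and 1852 on the sucrose arrays. The groups did not overlap, and the log2 difference was 0.92 ± 0.21 (SE; limma adjusted p = 0.0291). Another, dimmer probe set of kay had a difference of 0.87 (limma adjusted p = 0.015, all probe sets without the filter). The call of kay was kept in 2 of the 6 fits without 1 array, those without glucosamine replicate 3 or sucrose replicate 1. For nej, which encodes the histone acetyltransferase CBP, a partner of the CLK protein, the intensities were 1490, 1259 and 2010 against 588.3, 787.2 and 1222. Its groups did not overlap by a narrow margin, and the difference of 0.90 ± 0.30 (SE; limma adjusted p = 0.0855) did not pass. For another probe set of nej the groups overlapped, at a difference of 0.95 (all probe sets without the filter).

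In the list of neuropeptide, light input and output genes, 5 of 14 genes were tested. None passed by limma, where 18.6% of everything tested did. An unadjusted p under 0.05 by limma was found for 0 of 5, against 32.9% of everything tested. With 5 genes, these counts are too small to set against those shares. The smallest unadjusted p values were those of qsm, a gene of light input (difference −0.33, adjusted p = 0.182), Kdm3, a histone demethylase gene (−0.58, adjusted p = 0.183) and unc79, a gene of a neuronal sodium leak channel complex (0.27, adjusted p = 0.267), each from the limma fit. The neuropeptide genes Dh31 and Dh44 were below the filter, like Pdf, at intensities of 5.94 to 8.27 and 5.28 to 10.6.

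**Figure D3:**
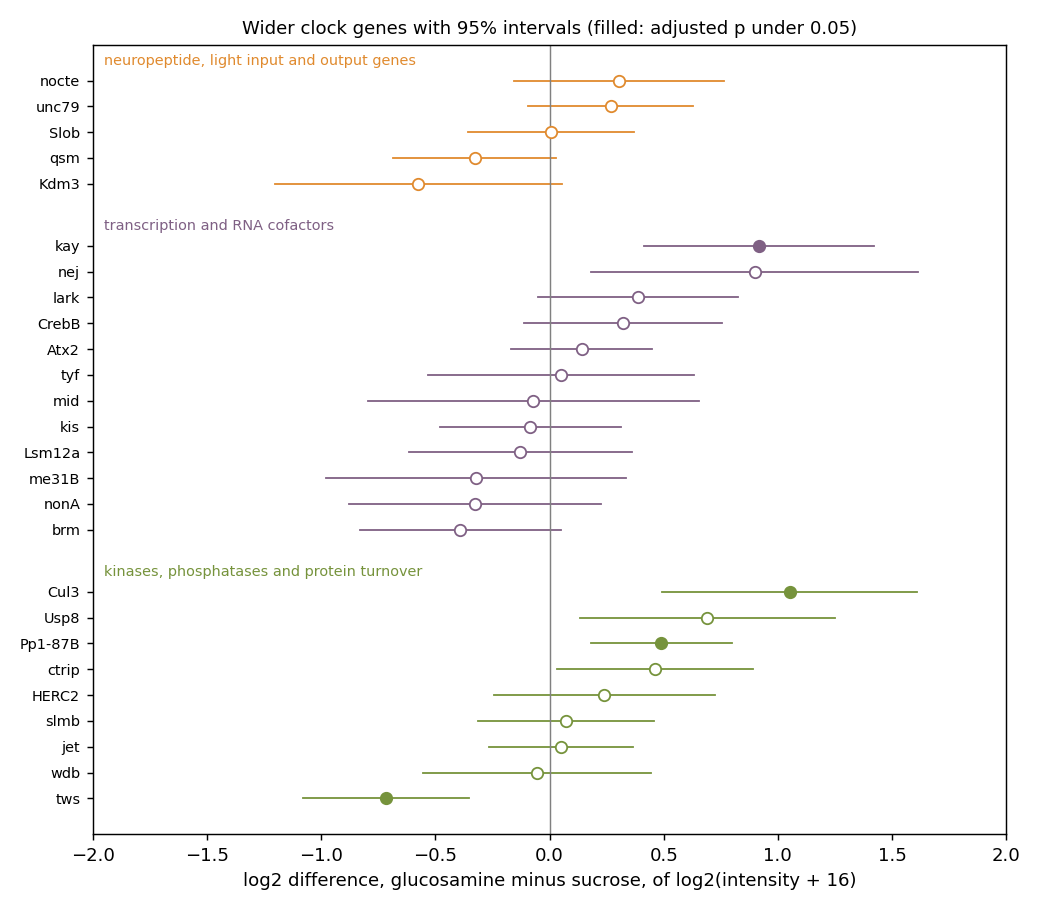
Log2 difference, glucosamine minus sucrose, of log2(intensity + 16) with 95% intervals for the 26 tested genes of the 3 wider clock lists, filled where the adjusted p was under 0.05. Cul3, Pp1-87B and kay lie above 0, tws lies below 0, and of the other intervals those of Usp8, ctrip and nej exclude 0 without passing the threshold. Each gene is shown by its brightest probe set. Another probe set of ctrip had the opposite sign, −0.50, with an interval from −0.96 to −0.03 (all probe sets without the filter). Another of nej had 0.95, with an interval from −0.04 to 1.95 in the same fit.

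The cell types in the complexes were checked by their markers. Of 7 nephrocyte markers, among them the slit diaphragm gene sns and the uptake receptor gene Cubn, 5 were lower after glucosamine past the threshold, where 8.64% of everything tested was, none was higher, and all had a negative difference. Their summed intensities were 5698 to 7422 against 19893 to 32969. The summed intensity of 5 heart markers was 8943 to 11904 against 14327 to 18196, nearly all of it from Hand, a heart and pericardial transcription factor gene. Hand was the 1 of 5 tested members past the threshold, against 18.6% of everything tested, and it was lower after glucosamine. Without Hand the other 4 heart markers overlapped, at 967 to 1962 against 994 to 1658. Among them Mlp84B had a difference of 0.37, H15 of 0, mid of −0.07 and tup of −0.18, none past the threshold. The nephrocyte sum, and Hand among the heart markers, thus lay apart in the same direction as cry and Pdfr, while 39.0% of everything tested had groups that did not overlap. In whole complexes fewer cells of a type and less RNA per cell cannot be told apart, and the part of the nephrocytes in the cry and Pdfr values was not tested. Neuron and glia markers summed to 573 to 868 after glucosamine and 626 to 853 after sucrose, overlapping ranges. Of 6 tested members 0 passed the threshold, against 18.6% of everything tested. An unadjusted p under 0.05 by limma was found for 0 of them, against 32.9% of everything tested. The synaptic genes brp, VGlut and VAChT were near the lowest deposited values. In the same list elav, at 213.4 to 457.1, and moody, at 252.3 to 452.4, were well above them, and nSyb and repo lay between. Fat body markers, which include the yolk protein genes, also overlapped, at 105990 to 119802 against 108929 to 130781. Of 9 tested members 0 passed the threshold, against 18.6% of everything tested. By limma 0 of them had an unadjusted p under 0.05, against 32.9%. Markers of oenocytes and epidermis, hemocytes and body muscle had overlapping sums as well, with ranges of 58625 to 70537, 4708 to 8326 and 6166 to 12688 after glucosamine and of 56127 to 65827, 5196 to 7528 and 6458 to 8986 after sucrose. Gut markers ran from 3426 to 10416 against 4839 to 5422, with glucosamine replicate 3 the highest. LManII, the brightest of them on each array, was the 1 of 5 tested members that passed, against 18.6% of everything tested. Its difference was −0.50, while alphaTry, betaTry, Jon65Aiv and Mal-A1 had positive differences of 1.41 to 1.96 that did not pass. Without LManII the sums ran from 119 to 6842 against 129 to 519.

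**Figure D4:**
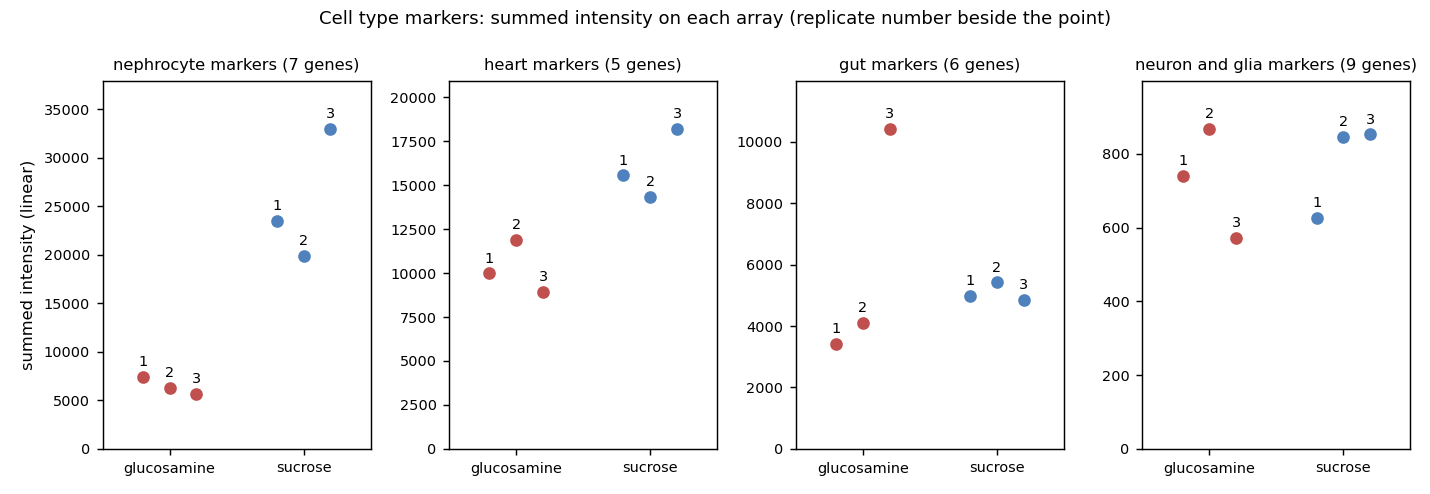
Summed deposited intensity (linear axis from 0, its own scale in each panel) of 4 lists of cell type markers on each array, red for glucosamine and blue for sucrose, with the replicate number at each point. The nephrocyte sums (5698 to 7422 against 19893 to 32969) and the heart sums, which are nearly all Hand, do not overlap between the groups, the neuron and glia sums do, and the gut sum of glucosamine replicate 3 (10416) stands above all other arrays. On the other arrays the gut sums are mostly LManII.

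Across the arrays, 6321 to 6435 probe sets had an intensity over 100 and the upper quartile lay between 222 and 237. Log2 values correlated across probe sets, which are no independent replicates, with a Pearson r of 0.983 to 0.987 within groups and of 0.960 to 0.972 between groups. The ratio of 5′ to 3′ signal of control transcripts, a sign of RNA integrity, was lower on all glucosamine arrays for eIF-4a, GAPDH and 18S rRNA, by 0.75, 0.15 and 0.12 on the log2 scale, and overlapped for actin. The part of RNA integrity in the clock gene values was not tested. Precision is limited by the number of arrays.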

How the data were processed

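The deposited table holds a value for each probe set on each array, and the unit was assumed to be linear intensity. Per the labels' protocols, Trizol and an RNeasy MinElute kit were used for RNA, which was labelled as biotinylated cRNA. The summary and normalization of the probes are not given in the sources used here, and the values were used as deposited. Of 18952 probe sets, 183 were controls, 13647 had 1 symbol (13544 matched to RefSeq by Entrez identifier, 0 symbols changed), 402 had several and 4720 had none. Controls and probe sets of several genes were left out. For each gene the probe set of highest mean was kept, the dimmest 40% were dropped, and the remaining 10021 were fitted in limma 3.58.1 (R 4.3.3; lmFit, eBayes) on log2(intensity + 16), two-sided, with Benjamini-Hochberg adjustment and a threshold of 0.05. Errors of differences are SE of the fit. Figures were drawn with Python 3.11.15 and matplotlib 3.10.9. Groups came from the sample titles. The members and lists were chosen with earlier results of these data known. The genes named were all members, the called genes of each wider list and otherwise 3 with the smallest p; slmb, jet, nej and the markers were added after their values were seen. CG numbers are RefSeq locus tags (Release 6 plus ISO1 MT). 3 listed symbols were updated through RefSeq synonyms. The fit was tested on simulated data. Alternatives covered normalization, filter, probe sets, variance prior, array weights, pseudocount, replicate number as a block and each array left out.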

Additional observations from a re-analysis of the deposited data

How the results depend on the processing

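The 4 calls among the clock genes were also 4 under cyclic loess, quantile normalization and median centring, a filter on 60%, averaged or separate probe sets, array weights, a robust prior with a variance trend and log2(intensity + 64), and 3 under log2(intensity + 1). They were 1 with no filter (cry), where 1314 of 16702 tested were called. They were 1 to 3 with 1 array left out, 1 with glucosamine replicate 3 and sucrose replicate 1 left out, and 2 with the replicate block. Of the wider clock genes, 4 calls became 2 with no filter, where 33 of these genes were tested, and 1 with the replicate block. With 1 array left out they became 0 to 2 (0 without glucosamine replicate 1, where 5 of 26 had an unadjusted p under 0.05 by limma). With both arrays left out they became 0 (4 of 26 under that p). The share of everything tested under that p is not given for these fits, so these counts are not set against it. Over all genes 1860 calls became 999 with the replicate block, 786 to 1467 with 1 array left out and 331 with both left out. Same-numbered arrays did not deviate together (r = 0.017, −0.121 and −0.064 across probe sets for replicates 1, 2 and 3), so the numbers were not taken as pairs; vri and dco were not called under the block (adjusted p = 0.0771 and 0.0875). The highest-mean probe set of each member, or the mean of its probe sets, kept its sign in the 19 alternatives, but the other probe set of cwo, fitted separately, had 0.28 against −0.29. Fits that leave arrays out rest on fewer arrays; the cause of the other lost calls was not tested. Values near the lowest intensity of 4.32 carry little information, the neuropeptide genes among them.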
